A study of Ovis aries with 14 samples.

Results

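Among the genes measured in the lungs of preterm, fetal and term lambs, 197 of 27054 had more RNA in every supported and every term lung than in any fetal lung, and reached the term level in at least 1 supported lung. They were chosen from the counts themselves. CPM (a gene's count over its library's column total, scaled by 1000000) was computed for each library, and a gene entered where its mean over all 14 libraries was from 2 to under 1000 CPM. All 8 IMV, NRS and term libraries had to lie above all 6 fetal libraries, with a mean at least 1.5 times the fetal mean, and at least 1 IMV or NRS library had to be at or above the lower term library. Of 13364 genes in the CPM range, 399 met the separation of libraries and 220 of these also met the fold minimum. The level of the lower term library was reached by 197 of the 220, and in the other 23 genes all supported libraries stayed below both term libraries. Separation, ratio and term level are therefore properties of the choice, and they are given as descriptions with no test.

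The libraries hold total RNA of the right lower lung lobe of sheep (Ovis aries). Preterm lambs labelled with the gestational age gd134 had received 3 days of respiratory support, either invasive mechanical ventilation through an airway tube (IMV, n = 3) or support without intubation, given by mask (noninvasive respiratory support, NRS, n = 3). The untreated groups were fetal start (n = 3, labelled gd127, gd128 and gd131), fetal end (n = 3, gd135, gd134 and gd136 for replicates 1 to 3) and term (n = 2, replicates 2 and 3, both gd150). The labels give no drug, breed or sex for any group and do not say whether the term lambs had been born. Each library has its own animal identifier. These identifiers end in 19 for all fetal end lambs, in 18 for all NRS and term lambs, in 17 for IMV replicates 1 and 2 and fetal start replicate 1, and in 18 for the remaining IMV and fetal start lambs. What the ending stands for is not given in the sources used here, and fetal end cannot be told apart from it. Column totals ran from 23267448 to 31586235 counts, so that 1 count is worth between 0.0317 and 0.043 CPM.

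Before birth the lung is filled with liquid that its own epithelium secretes. With the first breaths the liquid is absorbed, surfactant lowers the surface tension of the new air spaces, blood flow through the lung rises, and macrophages and other immune cells settle in the air spaces. A lamb born preterm makes this change with a lung whose air spaces are still dividing, and respiratory support keeps up gas exchange meanwhile. The deposited table gives Ensembl gene identifiers with no names, and 0 of them matched the RefSeq table used for names. The roles of the members are thus not known here, the labelled tissue could not be checked by marker genes, and members are given by identifier with at most 2 for each kind of pattern. In tissue RNA fewer cells of a type and less RNA per cell cannot be told apart.

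The size of the difference varied widely among the members. The ratio of the 8 supported and term libraries to the 6 fetal ones had a median of 2.75 (quartiles 1.88 to 4.18). It was under 2 in 64 members, from 2 to under 4 in 76, from 4 to under 10 in 49 and 10 or more in 8. Their mean level had a median of 14.6 CPM, against 27.0 CPM for all genes in the CPM range, and CPM is not corrected for gene length. The gap between the lowest supported or term library and the highest fetal library was narrow: its median was 1.20-fold, it was under 1.1-fold in 67 members and it was 2-fold or more in 9. With libraries rescaled by TMM, edgeR's scaling for composition, 192 of the 197 still had all 8 above all 6.

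**Figure D1:**
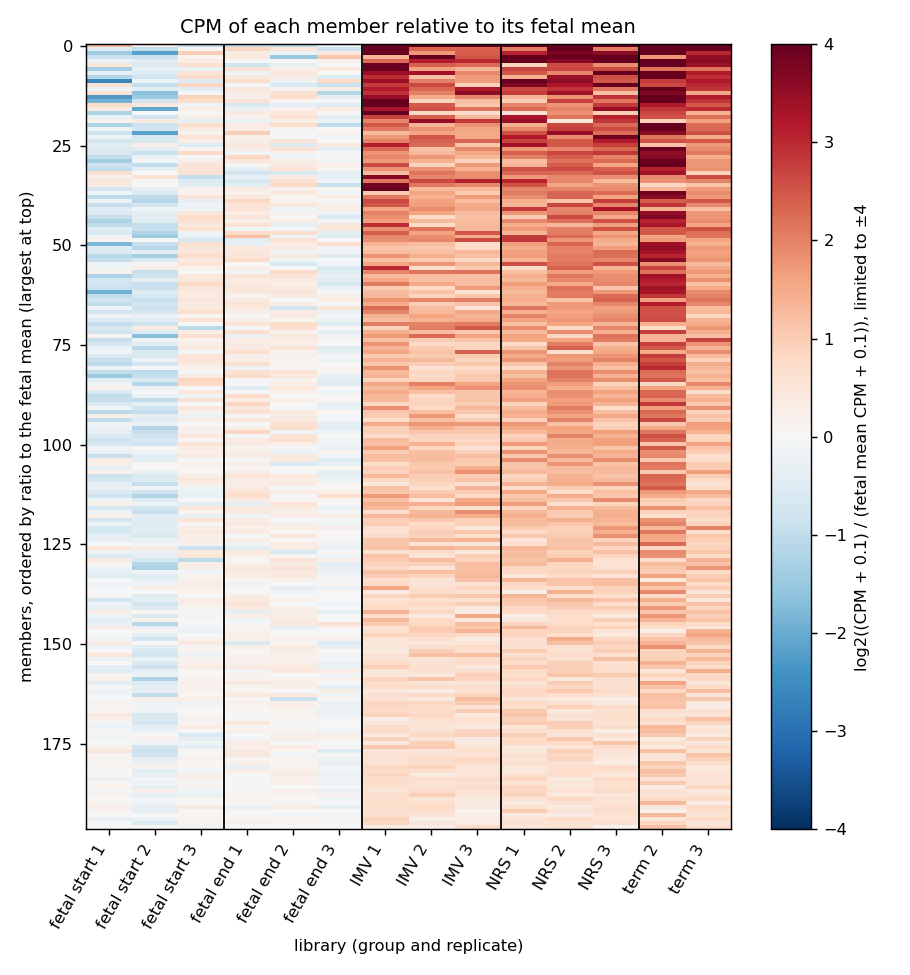
CPM of the 197 members (rows, ordered by their ratio to the fetal mean) in the 14 libraries (columns, black lines between groups), as log2 of CPM over the mean of the 6 fetal libraries with 0.1 added to both and colours limited to ±4. All members are higher in the 8 columns on the right because they were chosen so, and term replicate 2 is the highest column in 106 of them.

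ENSOARG00000003423 had the largest ratio, 472. Its CPM was 0.398, 0.142 and 0 in the fetal start libraries and 0, 0 and 0.0806 in the fetal end libraries. It was 12.7, 15.6 and 21.5 after IMV, 35.9, 8.12 and 201 after NRS, and 62.0 and 33.7 at term. The gene was thus at or near 0 in all fetal lungs, and only NRS replicate 3 exceeded both term lambs, while NRS replicate 2 was the lowest supported lung. It is the only member with a fetal library at 0 counts, and 10 members stayed under 1 CPM in all fetal libraries.

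ENSOARG00000012621 came next, with a ratio of 58.0. Fetal libraries held 0.289, 0.177 and 0.489 CPM at fetal start and 0.877, 0.67 and 0.201 CPM at fetal end. Term libraries held 126 and 26.6 CPM. Among the supported lungs IMV replicate 1 alone was in that range, at 37.2 CPM, and the others had 2.75 and 2.76 CPM after IMV and 2.19, 9.07 and 2.20 CPM after NRS. Here a single lamb met the rule's demand for a library at the term level.

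ENSOARG00000005722 had the highest mean level, 869 CPM. It stood at 308, 363 and 597 CPM at fetal start, 567, 583 and 565 CPM at fetal end, 751, 910 and 654 CPM after IMV, 1038, 965 and 1642 CPM after NRS, and 1255 and 1962 CPM at term. Group means were ordered from fetal start through fetal end, IMV and NRS to term, and only NRS replicate 3 passed the lower term lamb. ENSOARG00000013202, the next by level at 333 CPM, went differently: fetal start had 275, 278 and 258 CPM and fetal end 197, 261 and 216 CPM, against 437, 455 and 353 CPM after IMV, 346, 389 and 417 CPM after NRS and 455 and 329 CPM at term. All 6 supported lungs were above the lower term lamb of this gene.

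At the fold minimum itself the members ENSOARG00000020530 and ENSOARG00000018731 had ratios of 1.502 and 1.514. ENSOARG00000001314 and ENSOARG00000010898, which met all other conditions, had 1.4998 and 1.497 and were not taken.

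Because the choice used all libraries, it was repeated without each library in turn, and the left-out library was then compared with the genes chosen without it. Only the left-out library's own values were unused by that choice, since the libraries it is set against helped to choose the genes. A library that did not differ from the rest would also pass such a comparison in part of the chosen genes, so the shares are a description and not independent support. Without IMV replicate 1, 194 genes were chosen and 186 of them (95.9%) were above all fetal libraries in that lamb, where 20.3% of all genes in the CPM range were. The figures were 198 of 211 genes (93.8%, against 19.6%) for IMV replicate 2 and 196 of 226 (86.7%, against 24.7%) for IMV replicate 3. For the NRS lambs they were 195 of 203 (96.1%, against 24.9%), 190 of 207 (91.8%, against 23.7%) and 193 of 221 (87.3%, against 19.1%). Most genes chosen on the other lambs were thus also above the fetal libraries in each left-out supported lamb.

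Term lambs gave 176 of 187 genes (94.1%, against 26.6% of the range) for replicate 2 and 89 of 100 (89.0%, against 27.3%) for replicate 3. A left-out fetal library was below all supported and term libraries in 202 of 214 genes (94.4%, against 19%), 190 of 195 (97.4%, against 28.2%) and 202 of 247 (81.8%, against 15%) for fetal start replicates 1 to 3. At fetal end it was so in 199 of 247 (80.6%, against 14.4%), 204 of 239 (85.4%, against 12.1%) and 198 of 204 (97.1%, against 23.3%). The lowest shares belonged to fetal start replicate 3 and fetal end replicates 1 and 2, the fetal lungs in which the members were highest. No test was made of these shares, since genes of 1 lamb vary together.

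The left-out lamb was also set against the term lambs. Of the genes chosen without it, IMV replicate 1 was at or above the lower term library in 113 of 194 (58.2%), IMV replicate 2 in 92 of 211 (43.6%) and IMV replicate 3 in 85 of 226 (37.6%). NRS replicate 1 reached it in 117 of 203 (57.6%), NRS replicate 2 in 139 of 207 (67.1%) and NRS replicate 3 in 57.5% of 221 genes. Among all genes in the CPM range these lambs were at or above the lower term library in 58.7%, 60.5% and 65.7% (IMV) and 73%, 71.6% and 64.9% (NRS), so each share in the chosen genes was below that of the range.

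Among the 197 members the number at or above the lower term library was 125, 91 and 88 in IMV replicates 1 to 3 and 119, 149 and 132 in NRS replicates 1 to 3. As shares this is 51.4% ± 10.4 after IMV and 67.7% ± 7.64 after NRS (SD, n = 3 each), and the groups overlap, since IMV replicate 1 exceeded NRS replicate 1. For the 6 lambs in order the shares of members were 63.5%, 46.2%, 44.7%, 60.4%, 75.6% and 67.0%, where all genes in the CPM range had 58.7%, 60.5%, 65.7%, 73%, 71.6% and 64.9%. In the range, too, NRS replicates 1 and 2 were above all IMV lambs, while NRS replicate 3 was below IMV replicate 3. A higher share after NRS is thus not particular to the members. The members were less often at the lower term level than genes at large in IMV replicates 2 and 3 and NRS replicate 1. In IMV replicate 1 and NRS replicates 2 and 3 they were slightly more often so. The rule needs 1 supported library at this level, so these shares are not independent of the choice. In the genes chosen without each lamb, that lamb's share was below the range in all 6. At or above both term libraries there were far fewer, 39, 32 and 29 members after IMV and 41, 30 and 35 after NRS. These are 19.8%, 16.2%, 14.7%, 20.8%, 15.2% and 17.8% of the members, all below the shares of the range (31.3%, 33.4%, 37.6%, 40%, 35.1% and 35.2%). A supported library of both kinds reached the lower term library in 140 members, of NRS alone in 43 and of IMV alone in 14.

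**Figure D2:**
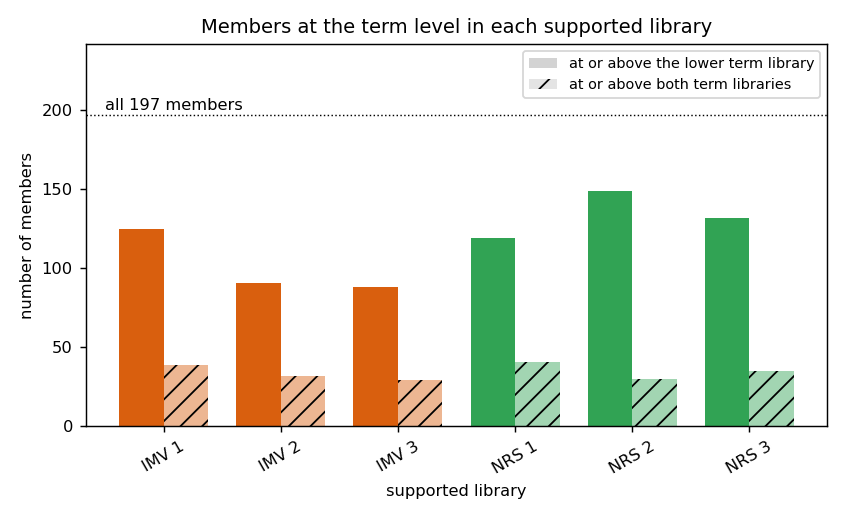
Number of the 197 members (vertical axis) at or above the lower term library (solid bars) and at or above both term libraries (hatched bars) in each of the 6 supported libraries (IMV orange, NRS green). Solid bars run from 88 (IMV replicate 3) to 149 (NRS replicate 2) and hatched bars from 29 to 41.

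The term lambs themselves differed in these genes, and which of them serves as the term level decides much of the result. Term replicate 3 was the lower in 141 of the 197 members, and the term libraries were over 2-fold apart in 39.6% of members, against 5.81% of genes in the CPM range. The rule asks only for the lower term library to be reached, which a wide gap between the term lambs makes easier. This share is therefore not independent of the choice. Against term replicate 3 alone, 75 to 130 members were reached in a supported library (108, 75 and 75 in IMV replicates 1 to 3, and 103, 130 and 114 in NRS replicates 1 to 3). Against term replicate 2 alone it was 42 to 57 (56, 48 and 42 for IMV, and 57, 49 and 53 for NRS). Applied without term replicate 3 the rule chose 100 genes, 87 of them among the 197, and without term replicate 2 it chose 187, of which 173 were shared.

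The number of supported lungs at the lower term level was spread evenly over the members: 29 members had 1 such lung, 34 had 2, 31 had 3, 32 had 4, 40 had 5 and 31 had all 6. In 3 members all 6 supported lungs were at or above both term lambs, and in 120 members no supported lung was. ENSOARG00000018898 is among the 3, at 27.5, 29.0 and 30.9 CPM after IMV, 29.7, 22.4 and 30.7 CPM after NRS, and 17.4 and 20.9 CPM at term, with fetal start at 12.8, 8.26 and 8.99 CPM and fetal end at 9.92, 13.3 and 13.3 CPM. Supported lungs of this gene were above both the younger and the older untreated lungs, with no overlap. ENSOARG00000020877 did the same at a lower level, with 20.3, 6.14 and 5.42 CPM after IMV, 8.15, 4.25 and 4.90 CPM after NRS, 2.45 and 3.12 CPM at term, 1.70, 1.35 and 0.941 CPM at fetal start and 0.992, 2.42 and 0.685 CPM at fetal end. Its term lambs were close to the highest fetal lamb.

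The distance covered was also expressed per member as the percent of the step from the fetal mean to the term mean. The IMV mean covered a median of 60.5% of this step (quartiles 37.0 to 100.3, range 15.2 to 646) and the NRS mean 73.1% (quartiles 53.6 to 101, range 5.30 to 548). On TMM-scaled CPM these medians were 60.4% for IMV and 69.0% for NRS. For single libraries, on column totals only, the median over members was 62.0%, 51.4% and 47.9% for IMV and 64.5%, 73.7% and 68.0% for NRS. All 3 NRS lambs were thus above all 3 IMV lambs on column totals, with NRS replicate 1 only narrowly above IMV replicate 1. The TMM factors of these libraries were 1.05 for NRS replicate 1 and 0.972 for IMV replicate 1. TMM scaling therefore lowers the CPM of the former and raises that of the latter. The order of single lambs under TMM scaling was not computed, so the separation holds for column totals only. The group mean was at or above the term mean in 51 members after IMV, in 51 after NRS, and in 31 after both. Both means stayed below it in 126 members. Without term replicate 2 the median steps were 90.7% for IMV and 119% for NRS, and without term replicate 3 they were 48.3% and 56.0%.

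**Figure D3:**
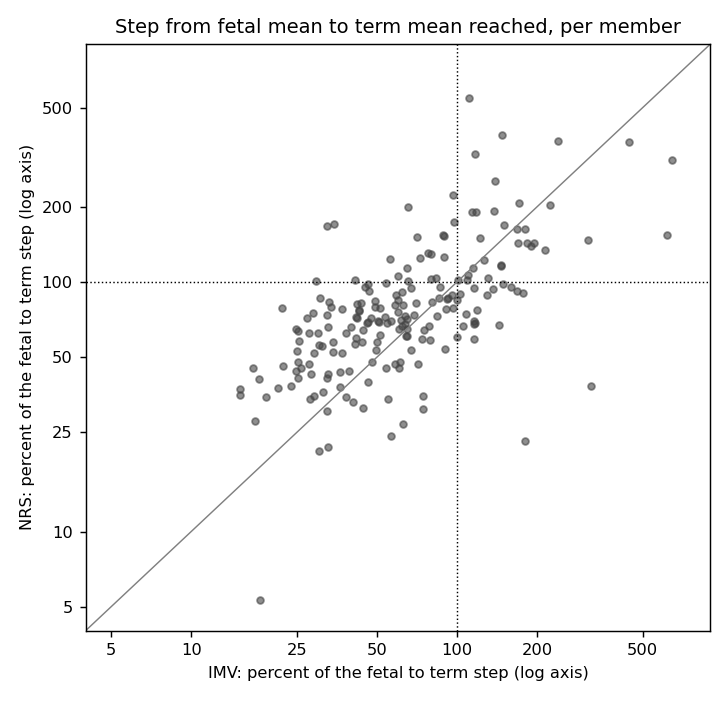
Percent of the step from fetal mean to term mean covered by the IMV mean (horizontal, log axis) and by the NRS mean (vertical, log axis), 1 point per member; the grey line marks equal steps and dotted lines mark 100%. More points lie above the grey line (125 members with the higher mean after NRS) than below it (72 with the higher mean after IMV). These means are on column totals. In the edgeR fit, with TMM scaling, 117 members were higher after NRS and 80 after IMV.

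The size of the difference did not follow the number of supported lungs at the lower term level. The 31 members with 6 such lungs had a median ratio of 2.20 and median steps of 97.3% (IMV) and 101% (NRS). The 65 members with 2 or 3 such lungs had a median ratio of 3.83 and median steps of 38.4% and 59.3%, and their term lambs were a median of 2.10-fold apart. In the 29 members with 1 such lung the median ratio was 2.06 and the steps were 46.1% and 59.0%. These classes are cut from values the rule used and carry no test.

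Whether the 2 kinds of support differed in these genes was tested, since the rule treats them alike. The test is not independent of the choice, as 43 members reached the lower term library through NRS alone and 14 through IMV alone. How far this shapes the direction of the differences was not tested. No member was called different between IMV and NRS: 0 of 197 passed the quasi-likelihood test of edgeR at a threshold of 0.05, with p adjusted by Benjamini-Hochberg over 17069 genes, and 0% of all genes passed. The smallest edgeR adjusted p of a member was 0.36. At an unadjusted p under 0.05 there were 24 members (12.2%), near the share of all genes (10.9%). They were divided unequally, with 19 members lower after IMV (9.64% of members, against 4.86% of all genes) and 5 higher (2.54%, against 6% of all genes). DESeq2, another count test, called 1 member where it called 0.853% of all genes.

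The median log2 fold change of the members, IMV against NRS, was -0.11 (quartiles -0.44 to 0.16), beside 0.004 for all genes tested, and 117 of 197 members were lower after IMV. Positive values made up 40.6% of members and 50.7% of all genes. All IMV libraries were below all NRS libraries in 49 members (24.9%, against 13.4% of all genes) and above them in 6 (3.05%, against 6.51%). With TMM scaling it was 39 (19.8%, against 9.75%) and 8 (4.06%, against 9.36%). The median moved with IMV replicate 1, the IMV lamb highest in these genes: it was -0.30 without that lamb. IMV replicate 3 is the IMV lamb whose identifier ends in 18 like those of all NRS lambs. It had 88 members at the lower term level (44.7%, against 65.7% of genes in the CPM range). The NRS lambs had 119 to 149 (60.4% to 75.6%, against 64.9% to 73%). With the ending as a covariate the median was -0.13 and 0 members passed in edgeR. As only 1 IMV lamb shares the ending of the NRS lambs, these values do not separate the ending from the kind of support.

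ENSOARG00000001269 had the smallest p among members lower after IMV. It held 6.43, 11.9 and 10.7 CPM after IMV and 38.9, 17.0 and 78.5 CPM after NRS, with no overlap, against 37.9 and 16.4 CPM at term and 0.922 to 1.58 CPM in the fetal libraries. The NRS lungs were at or above the lower term lamb and the IMV lungs below it. This gene thus met the rule's demand for a library at the term level through NRS alone. IMV minus NRS came to -2.18 ± 0.48 on the log2 scale (SE) with an edgeR adjusted p = 0.36, and this is the member DESeq2 called (DESeq2 adjusted p = 0.00455). ENSOARG00000009130 held 7.03, 8.17 and 5.99 CPM after IMV and 14.3, 10.8 and 14.5 CPM after NRS, beside 8.63 and 5.82 CPM at term and 1.49 to 3.50 CPM in the fetal libraries. Here the IMV lungs were in the range of the term lambs and the NRS lungs above it, a difference of -0.86 ± 0.25 on the log2 scale (SE) with an edgeR adjusted p = 0.36.

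The members with the smallest p in the other direction both rested on IMV replicate 1. ENSOARG00000004367 held 18.2, 1.52 and 1.36 CPM after IMV against 0.466, 1.76 and 1.00 CPM after NRS, with 4.72 and 3.26 CPM at term and 0.0763 to 0.376 CPM in the fetal libraries (log2 fold change 2.77 ± 0.91 SE, edgeR adjusted p = 0.36). ENSOARG00000020866 held 90.6, 4.72 and 4.27 CPM after IMV against 4.02, 9.54 and 5.25 CPM after NRS, with 17.3 and 7.05 CPM at term and 1.05 to 3.54 CPM in the fetal libraries (log2 fold change 2.48 ± 0.97 SE, edgeR adjusted p = 0.409). Groups overlap in both genes. Without IMV replicate 1 the log2 fold change was 0.46 for ENSOARG00000004367 and -0.45 for ENSOARG00000020866, and with the identifier ending as a covariate that of ENSOARG00000004367 was 1.11.

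**Figure D4:**
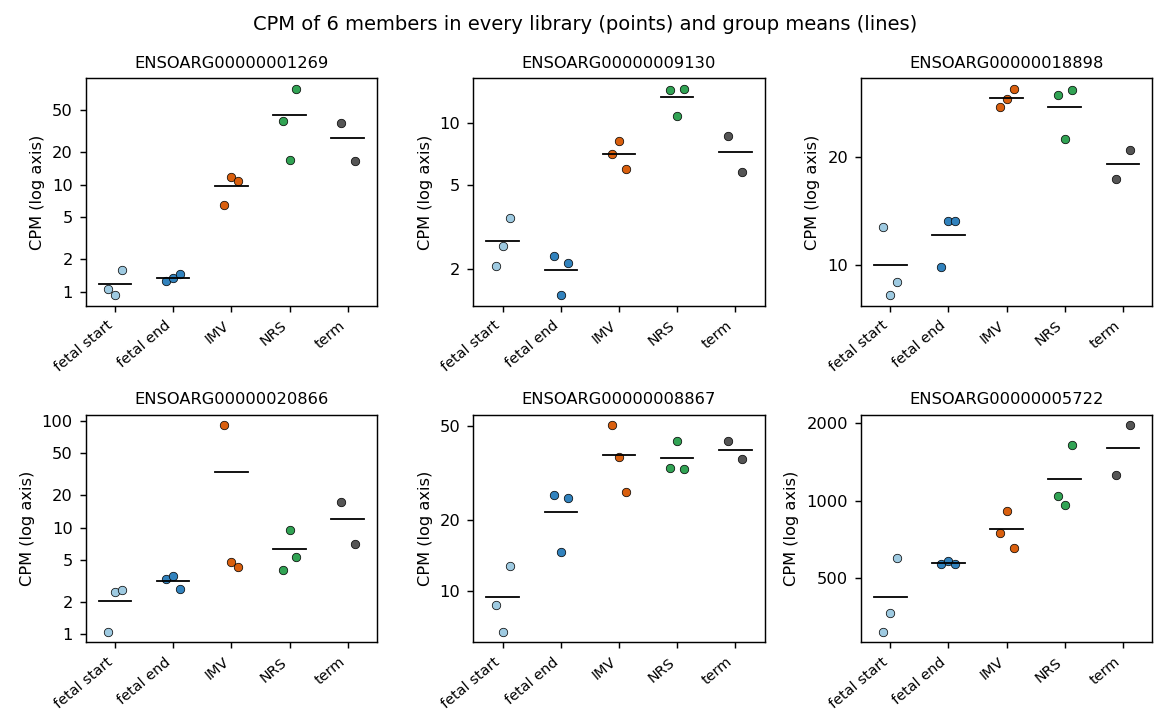
CPM (log axis) of 6 members in every library (points, coloured by group) with group means (lines), for the groups fetal start, fetal end, IMV, NRS and term. ENSOARG00000001269 and ENSOARG00000009130 show NRS points above all IMV points, ENSOARG00000018898 shows all supported points above term, and ENSOARG00000020866 shows IMV replicate 1 alone at 90.6 CPM.

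Some members were high in a single supported lamb. The rule lets in genes through 1 high supported library, so these counts are a description of the choice. In 13 members (6.60%) the highest supported library was at least 2 times the next, as in 1.65% of genes in the CPM range. IMV replicate 1 was that library in 11 of the 13 and NRS replicate 3 in 2. The highest supported library without regard to size was most often NRS replicate 2, in 59 members (29.9%, against 23.9% of genes in the CPM range). Term replicate 2 was the highest of all 14 libraries in 106 members.

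Change in utero between fetal start and fetal end was tested too, since the rule treats both fetal groups alike. This test is not independent of the choice either, as the rule holds every fetal library below all supported and term libraries. How far that shapes the counts and the direction of the fetal differences was not tested. None of the members passed the test: 0 of 197 in edgeR at an adjusted p under 0.05, where 1 of 17069 genes (0.00586%) passed, and the smallest edgeR adjusted p of a member was 0.352. At an unadjusted p under 0.05 there were 11 members (5.58%), fewer by share than among all genes (7.74%). Of these, 10 were higher at fetal end (5.08%, against 4.6% of all genes) and 1 lower (0.508%, against 3.13%). DESeq2 called 2 members, both higher at fetal end, and 0.732% of all genes.

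The members nevertheless leaned one way in these libraries. The median log2 fold change, fetal end against fetal start, was 0.25 (quartiles 0.05 to 0.48), beside 0.004 for all genes, and 161 of 197 members (81.7%) were positive, as were 50.7% of all genes. Fetal libraries did not separate in most of them: all fetal end libraries were above all fetal start libraries in 12 members (6.09%, against 6.96% of all genes) and below in 2 (1.02%, against 4.43%). On TMM-scaled CPM it was 13 (6.60%, against 6.24%) and 5 (2.54%, against 5.57%). The median was 0.50 without fetal start replicate 3, the oldest of its group, and ran from 0.15 to 0.30 without any other single library.

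In each fetal library the members' CPM over their fetal mean had a median of 0.843 (fetal start replicate 1, gd127), 0.728 (replicate 2, gd128) and 1.12 (replicate 3, gd131). At fetal end it was 1.15 (replicate 2, gd134), 1.17 (replicate 1, gd135) and 0.945 (replicate 3, gd136). The lambs labelled gd131, gd134 and gd135 were thus the highest and those labelled gd127 and gd128 the lowest, with the oldest fetus between them. For comparison the medians were 2.26, 2.03 and 2.15 after IMV, 2.44, 2.77 and 2.56 after NRS, and 3.56 and 2.36 at term.

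**Figure D5:**
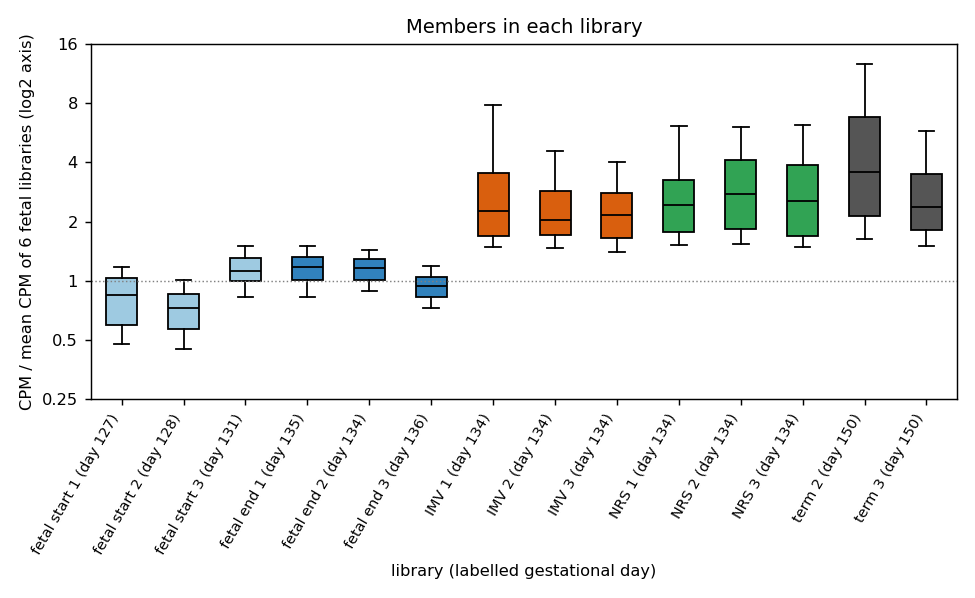
CPM of the 197 members over their mean in the 6 fetal libraries (vertical, log2 axis) in each library with its labelled gestational day; boxes show quartiles and median, whiskers the 10th and 90th percentiles over members. The fetal medians run from 0.728 to 1.17 and those of supported and term lungs from 2.03 to 3.56, a separation that the choice of members fixes.

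ENSOARG00000019237 was the member with the smallest p for a higher level at fetal end. It stood at 4.66, 3.83 and 5.61 CPM at fetal start and at 9.84, 8.27 and 8.18 CPM at fetal end, with no overlap. After support it held 14.4, 14.2 and 13.9 CPM (IMV) and 20.0, 11.1 and 15.8 CPM (NRS), and at term 22.9 and 19.5 CPM. The step in utero came to 0.88 ± 0.20 on the log2 scale (SE), with an edgeR adjusted p = 0.352 and a DESeq2 adjusted p = 0.016. ENSOARG00000008867 had 8.68, 6.67 and 12.8 CPM at fetal start and 25.6, 14.6 and 24.8 CPM at fetal end, again with no overlap (1.19 ± 0.30 on the log2 scale, edgeR adjusted p = 0.375, DESeq2 adjusted p = 0.0215). Its supported libraries, at 50.4, 36.9 and 26.2 CPM after IMV and 33.3, 43.3 and 32.9 CPM after NRS, began just above the highest fetal end library and surrounded the term lambs, at 43.2 and 36.2 CPM.

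Lower values at fetal end than at fetal start, with higher values after support, were seen in fewer members, and those with the smallest p are given. ENSOARG00000022030 held 4.63, 3.83 and 4.82 CPM at fetal start, 2.40, 3.98 and 2.58 CPM at fetal end, 4.96, 5.03 and 5.38 CPM after IMV, 5.99, 8.68 and 7.64 CPM after NRS and 9.65 and 8.20 CPM at term (-0.59 ± 0.22 on the log2 scale, edgeR adjusted p = 0.559). Its IMV lungs were barely above the fetal start lungs. ENSOARG00000002291 held 1.55, 0.993 and 1.43 CPM at fetal start, 0.534, 0.596 and 0.725 CPM at fetal end, 2.43, 4.65 and 3.80 CPM after IMV, 5.31, 5.11 and 6.13 CPM after NRS and 10.9 and 1.89 CPM at term (-1.12 ± 0.53 on the log2 scale, edgeR adjusted p = 0.654). The fetal groups did not overlap in this gene, and its term lambs were far apart.

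For completeness the comparisons that the choice fixed in direction are given, and nothing is read from them. Against fetal end 28 members were called higher after IMV (14.2% of members, 0.416% of all genes), 28 after NRS (14.2%, against 0.305%) and 66.5% of members at term (against 3.8%) by edgeR at an adjusted p under 0.05. Against fetal start it was 109 members after IMV (55.3% of members, against 2.13% of all genes), 104 after NRS (52.8%, against 1.65%) and 174 at term (88.3%, against 7.15%). The median log2 fold changes against fetal end were 0.98 for IMV, 1.23 for NRS and 1.49 for term, and the comparisons share their fetal libraries. These counts moved strongly with single libraries: without IMV replicate 1 or fetal end replicate 1 or 3, 0 members were called for IMV against fetal end.

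Term against supported lungs was used by the rule only through the lower term library. In edgeR 0 members were called higher at term than after IMV (0% of all genes) or NRS (0%). At an unadjusted edgeR p under 0.05, in either direction, there were 62 members for IMV (31.5%, against 17.9% of all genes) and 35 for NRS (17.8%, against 10.4%). DESeq2 called, also in either direction, 19 members for IMV (9.90%, against 7.04%) and 1 for NRS (0.521%, against 0.792%). Median log2 fold changes of the members, term against support, were 0.44 for IMV and 0.30 for NRS, with 147 and 155 of 197 members higher at term, as were 50.4% and 50.8% of all genes. Both moved with the term lamb left out. Without term replicate 2 the medians were 0.045 for IMV (103 members higher at term) and -0.097 for NRS (80 members), so that the direction turned for NRS. Without term replicate 3 they were 0.65 and 0.57. Term replicate 3 is the lower term library in 141 members, and the rule used that library as the term level, so these movements are not independent of the choice. With 2 term lambs that differ in these genes, a count of 0 does not show that supported lungs were at the term level.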

How the data were processed

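Libraries of total RNA (stranded kit, per the labels' protocols) from 14 lambs in 5 groups were analysed from 1 table of raw counts per gene that the authors deposited. Each column was checked to hold whole numbers, with totals that differ, so nothing had been normalized. Per the submitters' processing notes, which give neither role nor order, the tools included cutadapt 1.16, STAR 2.7.0f, featureCounts 1.6.3 and DESeq2 1.22.2, and the build was Oar_v3.1. Annotation release, strandedness of counting and handling of multi-mapping reads: not given in the sources used here. Genes that overlap, lie antisense to each other or are near-identical copies therefore have uncertain counts.

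Groups came from sample titles. Members and lists were chosen with earlier results of these data known. The quasi-likelihood test of edgeR 4.0.16 (R 4.3.3) was run on the counts with TMM scaling and filterByExpr (count minimum 10). It took 17069 genes and 5 group means in 1 fit, with 9 residual degrees of freedom. Standard errors are the log2 fold change over the square root of F. CPM use column totals. Library pairs within a group differed beyond sampling noise (chi-square per degree of freedom from 26.5 to 83.9). The procedure was tested on simulated counts. All 21 symbol lists (317 symbols) were dropped, as 0 symbols occur in the table.

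Named identifiers are at most 2 per pattern and direction: largest ratio, highest mean CPM, most supported libraries at or above both term libraries, smallest p for IMV against NRS and for fetal end against fetal start, and those nearest the fold minimum. Alternatives comprised DESeq2 1.42.0, scaling by RLE, testing unfiltered genes, fitting 2 groups alone, a block for replicate number, the identifier ending as covariate, other minimums in the rule, other term and fetal references, and leaving out each library. The last, for comparisons the rule used, and TMM scaling for counts of groups that do not overlap, were chosen after seeing the data.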

Additional observations from a re-analysis of the deposited data

How the results depend on the processing

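For IMV against NRS, 0 members were called with edgeR under RLE scaling, no filter, 2 groups alone, the identifier ending or any left-out library, and DESeq2 called 1. For fetal end against fetal start the same edgeR settings, the ending aside, also gave 0 and DESeq2 2. Median log2 fold changes of the members kept their sign throughout. With a library left out they ran from -0.30 (without IMV replicate 1) to -0.060 (without NRS replicate 2) for IMV against NRS, and from 0.15 (without fetal start replicate 2) to 0.50 (without fetal start replicate 3) in utero. Of the named members, ENSOARG00000020866 ran from -0.45 (without IMV replicate 1) to 3.00 and ENSOARG00000004367 from 0.46 (without the same lamb) to 3.31. Same-numbered lambs are separate animals, and 6 of 26 same-numbered pairs had deviations correlated above 0.1. Pairs with different numbers were not set beside them, so this does not decide whether the numbers pair lambs. With the replicate number as a block 0 members were called in both comparisons, with medians of -0.11 and 0.25.

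The rule chose 191 genes on TMM-scaled CPM (188 shared), 133 at a fold minimum of 2, 218 and 158 at CPM minimums of 1 and 5, and 100 (without term replicate 3) to 247 with a library left out. The share of member and supported library pairs at the term level was 59.6% for the lower term library, 26.3% for the term mean and 17.4% for the higher one. On the log2(CPM + 1) scale the median step was 72.4% for IMV and 84.0% for NRS. With a library left out it ran from 48.3% to 90.7% and from 56.0% to 119%, in both by leaving out term replicate 3 or 2.

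In the comparisons the rule used, leaving out a library gave 0 to 40 members (IMV), 2 to 17 (NRS) and 11 to 113 (term) against fetal end. Against fetal start it gave 3 to 124, 6 to 137 and 55 to 164. For term against IMV it gave 0 to 1. An arm left with 1 term lamb borrows its spread from the other groups. The cause of these movements was not tested. The group sizes limit all comparisons, as 2 term lambs set the term level.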

Other observations

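Members of different abundance were compared after the choice, with no test. The 20 members with a mean of 100 CPM or more had a median ratio to the fetal libraries of 1.90 and median steps towards term of 73.4% (IMV) and 81.2% (NRS). The 85 members under 10 CPM had a median ratio of 3.57 and steps of 60.5% and 71.7%. In the abundant class 9 of 20 members were lower after IMV than after NRS, and in the class under 10 CPM it was 56 of 85.

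Spread within a group was wider for the members than for all genes in the CPM range. The median coefficient of variation was 33.9% against 13.9% at fetal start and 35.0% against 11.1% at term. It was 19.5% against 11.9% at fetal end, 17.9% against 11.3% after IMV and 18.9% against 11.6% after NRS. The members also had lower levels (median 14.6 CPM against 27.0 CPM). The rule used these same values, and a wide gap between the term lambs makes its term condition easier to meet. The parts of the level and of the choice in this difference were not tested.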
